A study of Oryzias latipes with 48 samples.

Results

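The gonadotropin subunits of medaka are encoded by 3 genes, lhb, fshb and cga, which were found by symbol in a table of 26167 genes. Luteinizing hormone and follicle-stimulating hormone are pituitary glycoproteins, each a pair of an alpha subunit from cga and a beta subunit of its own, from lhb or fshb. The beta subunit sets which receptor the hormone binds, and thyrotropin pairs the same alpha subunit with a further beta subunit. In fish, follicle-stimulating hormone is known for its role in early growth of eggs and sperm, and luteinizing hormone for final maturation, ovulation and sperm release. In teleosts the hormones are made largely in separate pituitary cells, under the control of gonadotropin-releasing hormone and of sex steroids and activins. Medaka is a fish that breeds in long days.

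RNA was sequenced from a tissue block (ventral telencephalon, hypothalamus and pituitary) of medaka (Oryzias latipes) kept outdoors in natural conditions. Fish were taken every 4 h through 24 h at both equinoxes (called spring and autumn here) and both solstices (summer and winter) in 2018 and 2019, to learn how genes change over the day at each time of year. Each season has 12 libraries, 2 at each of the clock hours 2, 6, 10, 14, 18 and 22, so 48 libraries fall into 24 groups. The labels do not state strain, sex, age or number of fish per library, or which year and batch each season had. Season and batch therefore cannot be told apart, and p-values measure only the spread between libraries.

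Values are FPKM, fragments scaled to gene length and library total. Read depth per library is unknown. FPKM sums were 314605 to 359311 per library. Across genes, libraries of the same group correlated at 0.977 to 0.988. Of the 12 spring libraries, 3 (hour 2 library 1, hour 18 library 1, hour 22 library 2) stood apart at 21.1 or more on the second principal component, against 13.9 or less for the other spring libraries. Results that change without them are given both ways.

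All 3 subunits had their highest mean in summer, but each had a season order of its own. Over 12 libraries, lhb lay between 82.3 and 271 FPKM in summer (median 155). In autumn lhb lay between 21.5 and 51.4 FPKM (median 37.0). In spring it lay between 4.58 and 14.3 FPKM (median 9.37) and in winter between 4.54 and 9.39 FPKM (median 7.26). Every summer library was thus above every autumn library, and every autumn library above every spring and winter library, while spring and winter overlapped. The beta subunit of luteinizing hormone therefore fell in steps from summer to autumn and from autumn to the spring and winter level.

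The beta subunit of follicle-stimulating hormone had its lowest season in autumn. In summer fshb lay between 105 and 251 FPKM (median 186). In autumn it lay between 35.9 and 64.8 FPKM (median 46.1), so no autumn library reached the lowest summer value. In spring fshb lay between 72.4 and 170 FPKM (median 83.5) and in winter between 58.7 and 118 FPKM (median 91.7). Spring and winter overlapped each other widely, and every autumn library was below every spring library.

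The shared alpha subunit was the most abundant of the subunits per length and the one whose seasons were least separate. In summer cga lay between 481 and 980 FPKM (median 749). In spring it lay between 418 and 779 FPKM (median 588). In autumn cga lay between 224 and 654 FPKM (median 335) and in winter between 235 and 618 FPKM (median 327). Each of the 6 season pairs of cga overlapped in at least 1 library.

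**Figure D1:**
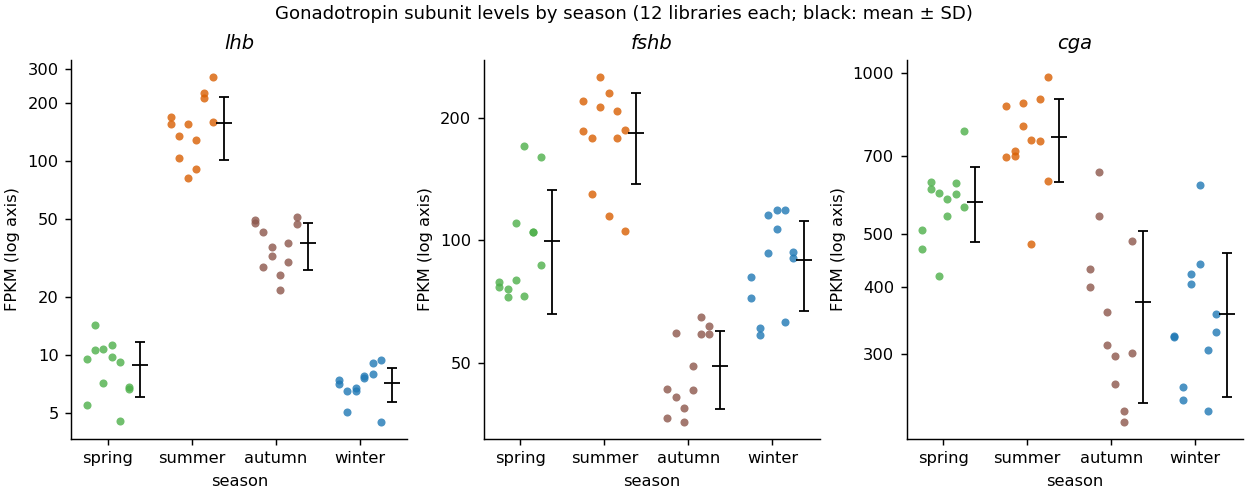
FPKM of lhb, fshb and cga (log axis) in each library by season; points within a season run from clock hour 2 on the left to 22 on the right, and black marks give mean ± SD over 12 libraries. The 12 summer libraries of lhb, at 82.3 FPKM or more, lie above all autumn libraries, at 51.4 or less, while cga overlaps between all seasons.

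Season means were compared with limma on log2(FPKM + 1) in a model of the 24 groups, with p-values adjusted over all 16622 genes that averaged at least 1 FPKM. A gene counts as called at an adjusted p below 0.05, and folds are on the log2(FPKM + 1) scale. The added 1 tends to make folds smaller than ratios of mean FPKM, most of all for genes near 1 FPKM. The season comparisons share libraries with each other. All 3 subunits were called higher in summer than in each other season. Of all genes tested, 42% were called higher in summer than in winter, 43.9% higher than in spring and 19.4% higher than in autumn. Being called is thus common in this table, and the sizes of the differences say more than the calls.

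For lhb, the summer mean was 157 ± 56.2 FPKM (SD, n = 12) and the autumn mean 37.7 ± 10.1 FPKM, a 3.99-fold difference (log2 2.00, SE 0.12, adjusted p = 1.2e-12). Only 0.295% of the genes tested had every summer library above every autumn library, and both lhb and fshb were among them. Against spring, lhb was 15.7-fold higher in summer and 3.95-fold higher in autumn (adjusted p = 4.9e-21 and 3.0e-14). Against winter, it was 18.6-fold higher in summer and 4.66-fold higher in autumn (adjusted p = 1.1e-21 and 2.5e-15). Of all genes, 12.1% were separate in this way between summer and spring, 13.8% between summer and winter, 12.2% between autumn and spring and 11.9% between autumn and winter.

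Spring and winter were the only neighbours in the season order of lhb that did not pass the test. The spring mean was 8.85 ± 2.76 FPKM and the winter mean 7.14 ± 1.42 FPKM, a log2 difference of 0.24 (95% interval -0.01 to 0.49, adjusted p = 0.11). Without the 3 spring libraries that stand apart, the difference was 0.37 with an adjusted p of 0.021. It also passed without spring clock hour 18 library 1 (0.31, adjusted p = 0.034) or without winter clock hour 22 library 1 (0.32, adjusted p = 0.031). Those libraries hold the lowest spring and the highest winter value of lhb, 4.58 and 9.39 FPKM.

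For fshb, the summer mean was 183 ± 46.0 FPKM and the autumn mean 49.2 ± 10.7 FPKM, a 3.62-fold difference (log2 1.86, SE 0.13, adjusted p = 1.8e-11). Summer was 1.85-fold above spring (log2 0.89, SE 0.13, adjusted p = 8.8e-07), or 0.58 on the log2 scale without library 2 of every group. Autumn was also below spring, at 99.4 ± 33.5 FPKM, by 0.97 on the log2 scale (SE 0.13, fold 1.96, adjusted p = 2.3e-07), and 27.3% of all genes were called lower in autumn than in spring. Autumn was below winter, at 89.3 ± 22.3 FPKM, by a fold of 1.78 (SE 0.13 on the log2 scale, adjusted p = 2.7e-06), against 29.3% of all genes called lower. In these pairs lhb went the other way, with autumn above spring and above winter (45.1% and 42.4% of all genes called higher). Only 6.27% of genes had every autumn library below every spring library, and fshb was among them. Spring and winter fshb differed by 0.13 on the log2 scale (95% interval -0.14 to 0.41, adjusted p = 0.42).

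Unlike the beta subunits, cga separated spring from winter. Its means were 576 ± 90.5 FPKM in spring and 355 ± 106 FPKM in winter, a 1.66-fold difference (log2 0.73, SE 0.09, adjusted p = 2.4e-07), and 21.3% of all genes were called higher in spring than in winter. Of 8 other pituitary hormone genes tested, 4 were also called higher in spring (log2 0.47 to 1.39), 3 lower and 1 not called. A higher level in spring than in winter is thus not particular to cga. Summer cga, at 760 ± 134 FPKM, was 1.31-fold above spring (log2 0.40, SE 0.09, adjusted p = 0.00027). That step was not called when library 2 of every group was left out (log2 0.23, adjusted p = 0.41). Summer was 2.10-fold above autumn (log2 1.07, SE 0.09, adjusted p = 3.8e-10), and autumn, at 375 ± 132 FPKM, was 1.60-fold below spring (adjusted p = 1.2e-07). Autumn and winter cga differed by 0.05 on the log2 scale (95% interval -0.13 to 0.24, adjusted p = 0.60). With all libraries in, the season order of lhb was therefore summer, autumn and then spring with winter. That of fshb was summer, spring with winter and then autumn, and that of cga summer, spring and then autumn with winter.

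Season accounted for most of the variance of each subunit on the log2 scale, to unequal degrees. For lhb, season held 94.97% of the variance, the mean clock hour profile 0.44%, the part in which clock hours differ between seasons 2.89% and the spread between libraries of a group 1.70%. For fshb these shares were 76.8%, 4.00%, 8.52% and 10.7%. For cga they were 65.3%, 2.68%, 24.2% and 7.83%. The shares rest on different degrees of freedom and are a description. The alpha subunit thus had the largest share in daily profiles that differ between seasons.

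Because the tissue block also held brain, the amount of pituitary in it can vary between libraries, and in such bulk tissue fewer cells of a type and less RNA per cell cannot be told apart. The summed level of 9 other pituitary hormone genes (growth hormone, prolactins, somatolactin, pro-opiomelanocortins and thyrotropin beta) was lowest in summer. It averaged 3707 ± 530 FPKM in summer, 5589 ± 1063 in spring, 4661 ± 638 in autumn and 3847 ± 865 in winter. As a sum, the pituitary hormones other than the gonadotropins were thus not raised in the season when the gonadotropin subunits were highest. Growth hormone, a large part of the sum, was lowest in summer (1277 FPKM, against 3437 in spring, 1919 in autumn and 2467 in winter). Prolactin (LOC101172582) averaged 1839 FPKM in summer and 974 in winter (log2 0.91), and somatolactin 197 and 72.8 (log2 1.61). Against winter, 3 of the 8 tested members were called up in summer, 3 were called down and 2 were not called. Of all genes, 42% were called up and 32.9% down in that comparison. The sum therefore does not speak for each hormone.

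Per 1000 FPKM of these other hormones, lhb stood at 41.8 ± 11.2 in summer, 8.09 ± 2.08 in autumn, 1.58 ± 0.406 in spring and 1.96 ± 0.652 in winter. On this scale fshb stood at 49.8 ± 12.4 in summer, 10.6 ± 2.07 in autumn, 18.5 ± 7.06 in spring and 24.3 ± 8.93 in winter. On it cga stood at 206 ± 32.2 in summer, 80.7 ± 25.5 in autumn, 107 ± 30.6 in spring and 95.3 ± 32.3 in winter. The summer maximum of all 3 subunits and the autumn minimum of fshb are seen on this scale too. The relation of spring to winter was not kept. For cga these seasons lay closer together than in FPKM (107 ± 30.6 and 95.3 ± 32.3). The means of lhb and fshb were lower in spring than in winter, the reverse of their FPKM means. The divisor was itself lowest in summer, which raises summer values on this scale. The scale is thus no separate check on the amount of pituitary. For lhb, the lowest summer library (24.8) lay above the highest autumn library (12.6), and the lowest autumn library (5.91) above the highest winter library (3.24). No test was made on this scale, since the other hormones also differ by season.

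Markers of other cells in the block also moved with season, in a comparison where 42% of all genes were called higher in summer and 32.9% higher in winter. Pituitary endocrine markers such as pou1f1 and the granins summed to 1222 to 1386 FPKM in summer and 1279 to 1545 in winter, with 4 of 11 tested members called higher and 6 lower in summer. Neuron markers summed to 2562 to 3120 FPKM in summer and 2081 to 2420 in winter, with 17 of 20 called higher. Blood markers, mainly hemoglobins, summed to 939 to 2415 FPKM in summer and 375 to 1228 in winter, with 5 of 7 called higher. Myelin markers (8 of 11 called higher) summed to 1453 to 2043 FPKM in summer and 999 to 1505 in winter, and radial glia markers (5 of 10 called higher, 3 lower) to 1348 to 1878 and 989 to 1230. No tested marker of these lists had a season mean of 0. Their part in the subunits' season levels was not tested.

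The balance between the beta subunits split the year into a pair of summer and autumn and a pair of spring and winter. All tested genes together had the same split. On their first principal component (42.7% of the variance), every summer and autumn library was positive and every spring and winter library negative. The split is thus not particular to the subunits. The share of lhb in the sum of lhb and fshb was 45.7 ± 9.59% in summer and 43.2 ± 7.72% in autumn (n = 12 each). It was 8.81 ± 3.75% in spring and 7.68 ± 1.93% in winter. The lowest share in summer was 27.9% and in autumn 33.4%, and the highest share in spring was 15.9% and in winter 11.2%, so the pairs did not overlap. Both beta transcripts were thus at a like level per length in summer and autumn, though the summed level was lower in autumn, whereas in spring and winter most of the sum of these betas was fshb.

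Ratios of (FPKM + 1) within a library were tested with two-sided permutation tests of season means (100000 resamples, 18 comparisons adjusted together). The log2 ratio of lhb to fshb averaged -0.26 ± 0.57 in summer and -0.39 ± 0.45 in autumn, a difference of 0.14 (permutation test, adjusted p = 0.55). It averaged -3.34 ± 0.65 in spring and -3.45 ± 0.38 in winter, a difference of 0.11 (permutation test, adjusted p = 0.62). Between these pairs of seasons it differed by 2.95 to 3.19, and the permutation tests gave an adjusted p of 2.2e-05, from 1e-05, the smallest that these resamples can give. The balance of the beta subunits thus differed between these pairs of seasons far more than within them.

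The ratio of each beta subunit to the alpha subunit had its own season order. The log2 ratio of lhb to cga averaged -2.33 ± 0.44 in summer, -3.25 ± 0.47 in autumn, -5.42 ± 0.46 in winter and -5.91 ± 0.46 in spring. All 6 season pairs passed the permutation test, the closest being spring against winter (difference -0.49, adjusted p = 0.021). Without the 3 spring libraries that stand apart, that pair gave -0.32 with an adjusted permutation p of 0.13. Summer against autumn differed by 0.92 (adjusted permutation p = 0.0003).

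The log2 ratio of fshb to cga stayed within a narrower range. It averaged -1.97 ± 0.27 in winter, -2.07 ± 0.30 in summer, -2.57 ± 0.35 in spring and -2.86 ± 0.61 in autumn. Winter and summer differed by 0.10 (permutation test, adjusted p = 0.44), although both genes had about 2-fold higher levels in summer. Spring and autumn differed by 0.29 (adjusted permutation p = 0.20). The other pairs passed, with differences of 0.49 to 0.89 in size and adjusted permutation p between 0.00036 and 0.0018.

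**Figure D2:**
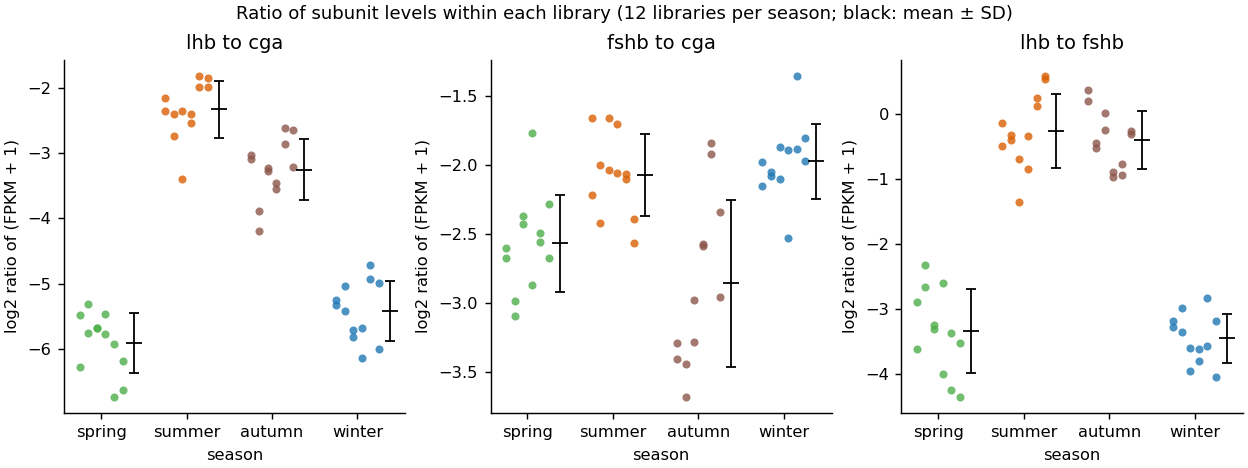
Log2 ratios of (FPKM + 1) between subunits within each library by season, 12 libraries each, ordered by clock hour within a season, with mean ± SD in black. The ratio of lhb to fshb lies between -1.36 and 0.59 in summer and autumn and between -4.35 and -2.32 in spring and winter, and that of fshb to cga overlaps between all seasons.

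The alpha transcript exceeded the beta transcripts per length in every library. The ratio of cga to the sum of lhb and fshb was 5.56 ± 1.11 in spring, 4.40 ± 1.55 in autumn, 3.71 ± 0.707 in winter and 2.29 ± 0.374 in summer. Thyrotropin also uses this alpha subunit, and its beta genes (LOC101171658 and the much lower LOC105354380) took 34.1 ± 8.77% of all beta transcript in spring and 40.0 ± 4.40% in autumn, against 10.5 ± 3.23% in summer and 20.6 ± 5.25% in winter. With these counted in, cga exceeded all beta transcript by a ratio of 3.61 ± 0.575 in spring, 2.93 ± 0.539 in winter, 2.60 ± 0.820 in autumn and 2.04 ± 0.285 in summer. The lowest library ratio on this count was 1.54, in autumn. Summer was the season with the smallest excess of alpha transcript by either count.

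Thyrotropin beta, the partner of the alpha subunit that is not a gonadotropin, had a season order unlike that of the gonadotropin betas. LOC101171658 averaged 56.1 ± 22.6 FPKM in spring, 53.4 ± 6.65 in autumn, 37.6 ± 12 in summer and 23.4 ± 5.82 in winter. It was 2.27-fold higher in autumn than in winter (SE 0.15 on the log2 scale, adjusted p = 3.1e-08) and 1.47-fold lower in summer than in autumn (adjusted p = 0.003). Like cga, it was above its winter level in spring (log2 1.18) and, unlike cga, it was not highest in summer. The much lower LOC105354380 was lowest in spring, at 0.406 FPKM, and highest in autumn, at 4.09 ± 5.09 FPKM.

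A cosine curve of 24 h was used to test the daily profile in each season and, for other shapes, with a test of any difference between the 6 clock hours. Each season covers 1 cycle, so a rhythm cannot be told apart from a drift during sampling. Profiles were called for lhb in summer and autumn and for cga in autumn and winter, and for fshb in no season by either test. Of all genes, the curve was called for 13.6% in summer, 16.1% in autumn, 2.59% in spring and 1.53% in winter, and the clock hour test for 15.1%, 23.5%, 6.28% and 2.78%.

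In summer, lhb was low through the day and high from evening. Its libraries read 135 and 104 FPKM at clock hour 6, 155 and 82.3 at 10 and 90.8 and 128 at 14. They read 225 and 211 FPKM at clock hour 18, 159 and 271 at 22 and 169 and 156 at 2. The libraries from 18 to 2 were all above those from 6 to 14, though narrowly, since hour 2 library 2 (155.7 FPKM) was just above hour 10 library 1 (155.2 FPKM). The curve had an amplitude of 0.54 on the log2 scale (SE 0.12, trough to peak 2.11-fold) with its peak at 21.4 h (adjusted p = 0.0059). The test of clock hours gave an adjusted p of 0.033. That call was lost, with an adjusted p up to 0.089, when any of 5 summer libraries was left out (clock hour 6 library 2, 14 library 1, 18 library 1 or 2, 22 library 2), while the curve was called with any single library left out.

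In autumn lhb had its highest libraries later and its lowest hour again at 14. The libraries read 48.1 and 49.7 FPKM at clock hour 2, 28.6 and 43.2 at 6 and 32.4 and 36.2 at 10. They read 26.0 and 21.5 FPKM at clock hour 14, 30.2 and 37.7 at 18 and 47.4 and 51.4 at 22. The 4 libraries of hours 22 and 2 were thus the highest of autumn. The amplitude was 0.45 (SE 0.12, trough to peak 1.87-fold) with the peak at 0.88 h (adjusted p = 0.023), and the test of clock hours gave an adjusted p of 0.073. The curve's call was lost without clock hour 2 library 2, 14 library 1, 14 library 2 or 22 library 2 (amplitude 0.39 to 0.45, adjusted p 0.051 to 0.10).

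In spring and winter, at much lower levels, lhb had no called profile. In spring it was highest at clock hour 6 (10.6 and 14.3 FPKM) and lowest at 18 (4.58 and 9.24), with an amplitude of 0.34 (SE 0.12, peak 8.82 h, adjusted p = 0.20). Without the 3 spring libraries that stand apart the spring amplitude was 0.18 (SE 0.14, peak 7.95 h, adjusted p = 0.84). In winter the amplitude was 0.18 (SE 0.12, adjusted p = 0.66). The curves themselves differed between seasons (adjusted p = 0.0029 over the 4 seasons, against 21.5% of all genes called). The summer curve differed from that of spring (adjusted p = 0.0025, 9.7% of genes called), and so did the autumn curve (adjusted p = 0.018, 13.1% of genes called). These adjusted p, with the 3 spring libraries left out, were 0.015 over the seasons, 0.033 for summer against spring and 0.12 for autumn against spring, which was then not called. Summer and autumn curves were not called different (adjusted p = 0.41, 0.59% of genes called), and neither were those of autumn and winter (adjusted p = 0.086, 10.2% of genes called).

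The clearest daily profile of cga was in autumn, with its maximum in the morning. Its libraries read 399 and 430 FPKM at clock hour 2, 540 and 654 at 6 and 311 and 358 at 10. They read 297 and 263 FPKM at clock hour 14, 224 and 234 at 18 and 301 and 486 at 22. Both libraries of hour 6 were above all others of autumn, and both of hour 18 below all others. The amplitude was 0.56 (SE 0.12, trough to peak 2.18-fold) with the peak at 4.47 h (adjusted p = 0.0019). Between clock hours 6 and 18 the difference was 2.59-fold, and the test of clock hours gave an adjusted p of 0.00046.

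In winter cga had a midday maximum and low means at clock hours 6 and 18, the latter also the lowest hour of autumn. Its libraries read 324 and 323 FPKM at clock hour 2, 246 and 260 at 6 and 404 and 423 at 10. They read 618 and 441 FPKM at clock hour 14, 235 and 304 at 18 and 329 and 356 at 22. The 4 libraries of hours 10 and 14 were the highest of winter. The test of clock hours was called (2.06-fold from hour 6 to hour 14, adjusted p = 0.026), and the cosine curve was not (amplitude 0.29, SE 0.12, adjusted p = 0.29). The call was lost without winter clock hour 14 library 1, which holds the highest value (range 0.80 on the log2 scale, adjusted p = 0.17), and without 6 library 1, 10 library 1, 10 library 2 or 18 library 1 (adjusted p 0.053 to 0.065).

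Autumn and winter had nearly the same mean level of cga but crossed over the day. At clock hours 2 and 6 both autumn libraries were above both winter libraries, and at 10, 14 and 18 both were below. At 18 the gap was narrow, with the higher autumn library at 234.4 and the lower winter library at 234.9 FPKM. Single hours were not tested. The autumn curve differed from the winter curve (adjusted p = 0.0039, 10.2% of genes called) and from the spring curve (adjusted p = 0.022, 13.1% of genes called). The difference from spring was lost without the 3 spring libraries that stand apart (adjusted p = 0.060) and without autumn hour 6 library 2 (adjusted p = 0.063). In spring and summer the amplitudes of cga were 0.11 and 0.08 (SE 0.12 each, adjusted p = 0.81 and 0.88), the spring value being 0.17 without those 3 libraries. The summer curve was not called different from that of autumn (adjusted p = 0.23), winter (0.27) or spring (0.90), nor the spring curve from that of winter (0.33). The nearly equal season means of autumn and winter thus went with daily curves that were called different.

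No daily profile of fshb was called, and its libraries of the same hour were often far apart. In summer the libraries of clock hour 14 read 115 and 230 FPKM, and in spring those of hour 14 read 170 and 72.9 FPKM. Its amplitudes were 0.31 in spring, 0.13 in summer, 0.29 in autumn and 0.32 in winter (SE 0.14 each, adjusted p between 0.31 and 0.78), and the summer value ran from 0.0071 to 0.25 with single libraries left out. The test of clock hours gave adjusted p between 0.33 and 0.47. The curves were not called different between seasons (adjusted p = 0.41). In winter fshb was lowest at clock hour 6 (58.7 and 60.9 FPKM) and highest on average at 14 (107 and 118), the same hours as for cga.

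**Figure D3:**
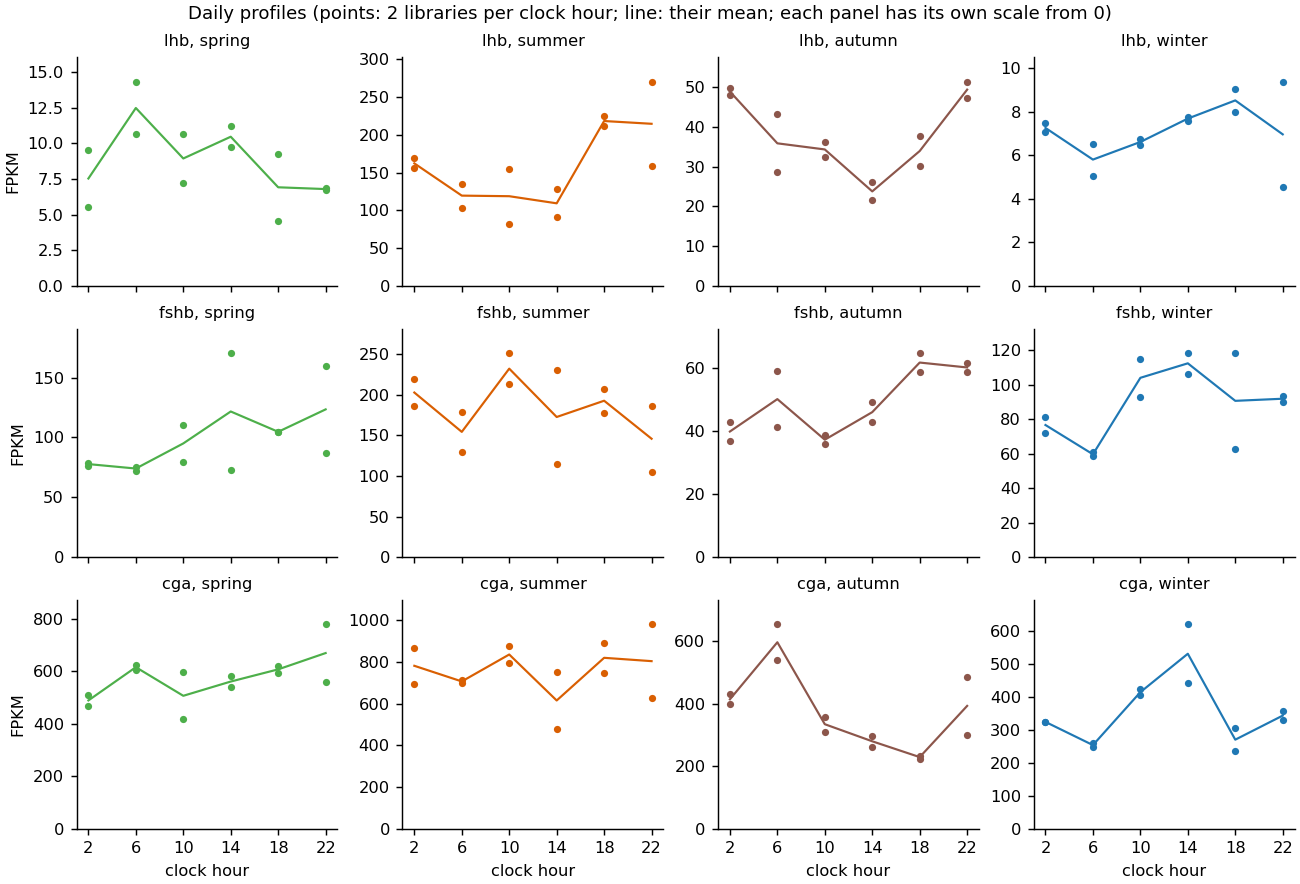
FPKM of lhb, fshb and cga by clock hour (2 to 22) in each season; points are the 2 libraries of an hour, lines their mean, and each panel has its own axis from 0. In summer lhb is highest at 18 and 22 h, in autumn at 22 and 2 h, and cga is highest at 6 h in autumn and at 14 h in winter.

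Over the 12 libraries of a season, the subunits were compared by correlation on the log2 scale, with permutation p adjusted over 12 relations. Season means differ widely, so no correlation over all 48 libraries is given. The permutations shuffled libraries without regard to clock hour, so the 2 libraries of an hour were treated as independent. Only fshb with cga in winter passed (r = 0.75, adjusted permutation p = 0.048; rho = 0.73, adjusted permutation p = 0.12). Without the 2 libraries farthest from the median of fshb, r was 0.64 with an adjusted permutation p of 0.28, and after median-ratio scaling it was 0.74 with an adjusted permutation p of 0.057. With those libraries left out, 10 remained.

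The same pair had r = 0.67 in summer (rho = 0.54, adjusted permutation p = 0.10), which was 0.22 without the 2 farthest libraries, and r = 0.56 in spring (rho = 0.23, adjusted permutation p = 0.23). In autumn r was -0.13 (rho = -0.14, adjusted permutation p = 0.78). For lhb with cga, r lay between 0.09 in winter and 0.53 in summer (rho -0.03 to 0.47 over the seasons), with adjusted permutation p of 0.23 or more. Without the 2 libraries farthest from the median of lhb, the summer r of lhb with cga was 0.72 (adjusted permutation p = 0.20). For lhb with fshb, r lay between -0.19 in spring and 0.34 in winter (rho -0.34 to 0.38), with adjusted permutation p of 0.57 or more.

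Libraries of the same season and hour differ for reasons other than season and hour, and deviations from the group means describe that remainder. Over 48 libraries, with 24 degrees of freedom, fshb and cga deviated together with r = 0.63, lhb and fshb with 0.39 and lhb and cga with 0.35. With other pituitary hormones the values were uneven. The highest were 0.56 for lhb with somatotropin (growth hormone, LOC101171460) and 0.57 for cga with thyrotropin beta (LOC101171658). Somatolactin (LOC100049402) had 0.49 with fshb, 0.49 with cga and 0.37 with lhb. For lhb the rest were 0.39 with pomc, 0.03 with thyrotropin beta and -0.01 with prolactin (LOC101172582). For fshb they were 0.44 with thyrotropin beta, 0.30 with prolactin, 0.11 with somatotropin and 0.07 with pomc. For cga they were 0.34 with prolactin, 0.18 with somatotropin and 0.09 with pomc. Both values of a point share a library and its scaling, and the correlations are a description with no test.

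**Figure D4:**
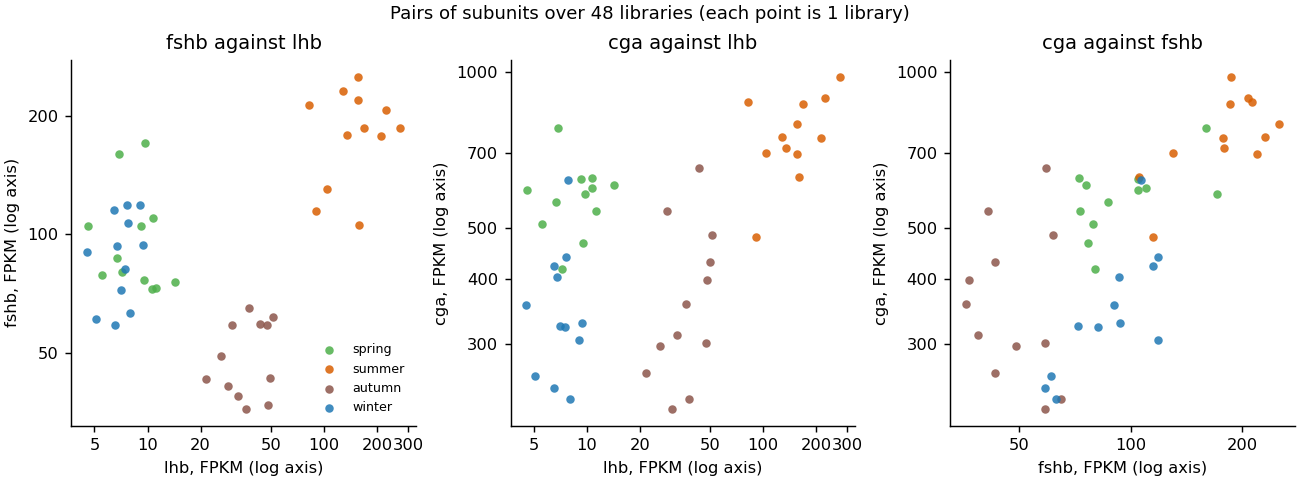
Levels of each pair of subunits in the 48 libraries (FPKM, log axes), colored by season; each point is 1 library. Summer and autumn libraries lie apart from each other and from the rest along the lhb axis, while spring and winter overlap on it; in winter fshb and cga had r = 0.75, which did not pass without the 2 farthest libraries.

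By the likeness of mean profiles over the 24 groups, the genes most like lhb were not pituitary hormones. They were the ATP-citrate synthase gene LOC101170190 (r = 0.96), the zinc finger gene LOC105355368 (0.95), uhrf2 (0.95), dse (0.95) and tmem206 (0.95). The closest to fshb were nmrk1 (0.86), tmem268 (0.82), stmn4 (0.80), c13h3orf33 (0.80) and f13a1 (0.79). The closest to cga were nbeal2 (0.86), the cathepsin Z gene LOC101171361 (0.83), LOC101174364 (0.82), rnf13 (0.82) and LOC101169275 (0.80). Among 16621 genes ranked, cga was at place 19 for fshb (r = 0.72) and fshb at place 41 for cga, while for lhb the other subunits had 0.39 (fshb) and 0.50 (cga). The r of lhb with cga was thus lower than that of fshb with cga, a difference that was not tested. Season held 94.97% of the variance of lhb, 76.8% for fshb and 65.3% for cga. These r values therefore rest largely on the 4 season levels, and the 24 groups are not 24 independent points.

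By deviations from the group means, the genes most like lhb were the tryptase gene LOC101157190 (r = 0.74), the peroxiredoxin-4 gene LOC101166157 (0.73) and vma21, a vacuolar ATPase assembly factor (0.71). For fshb they were rpap3 (0.71), LOC111948759 (0.67) and brat1 (0.67), with cga at place 11. For cga they were the TIM16 gene LOC101155031 (0.77), idi1, an enzyme of isoprenoid synthesis (0.69), and LOC101173349 (0.68). idi1 was also the fourth gene for fshb (0.66).

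Genes of the known control of gonadotropin synthesis were compared as a list of 50 entries (releasing hormones and their receptors, kisspeptins, transcription factors, steroid receptors, the activin system and brain aromatase), of which 43 were tested. In summer, 16 members were above and 15 below their winter level, against 42% and 32.9% of all genes, and the list's median log2 difference was 0.02, against 0.05 for all genes. Against spring, 18 were higher in summer (43.9% of all genes) and 13 lower. The list's median log2 difference there was 0.06, against 0.07 for all genes. Between summer and autumn, 10 were higher and 11 lower, against 19.4% and 24.2% of all genes. Between autumn and spring, 14 were higher and 18 lower, against 45.1% and 27.3%, and 9 were higher after median-ratio scaling. In each comparison the list held members called in both directions, as did the genes of the table as a whole, so this is not particular to the list.

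Among the releasing hormones, gnrh1, which in medaka and many other fish reaches the pituitary from the forebrain, shared the summer maximum. It averaged 5.27 ± 1.91 FPKM in summer, 0.926 ± 0.459 in autumn, 0.909 ± 0.496 in spring and 1.27 ± 0.456 in winter. Summer was 3.22-fold above autumn (SE 0.15 on the log2 scale, adjusted p = 7.3e-10) and 3.26-fold above spring. With gnrh1 near 1 FPKM outside summer, these folds are smaller than the ratios of its means. Autumn was not called different from winter (log2 -0.25, adjusted p = 0.12) or spring (0.02, adjusted p = 0.92), whereas lhb was about 4-fold higher in autumn than in spring. gnrh3, a releasing hormone made mainly outside the hypothalamus, was 1.61-fold higher in summer than in spring (adjusted p = 2.6e-06). gnrh2, the third of these peptides, was below 1 FPKM and not tested.

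The receptors for these peptides moved in different directions. gnrh-r2 was highest in winter, at 18.9 ± 1.77 FPKM, and lowest in summer, at 12.2 ± 0.985 FPKM (1.51-fold lower in summer, adjusted p = 5.6e-11). gnrh-r3 stood at 1.87 ± 0.206 FPKM in summer and 1.92 ± 0.347 in autumn, and at 1.28 ± 0.319 in spring and 1.08 ± 0.19 in winter. It was 1.28-fold higher in autumn than in spring (adjusted p = 1.5e-05). A further receptor gene, LOC101167607, was likewise higher in summer and autumn, by 1.40-fold in autumn against winter (adjusted p = 6.1e-06). These differences are far smaller than those of lhb, which had the same pair of seasons high.

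Follistatin, a secreted protein that binds activins, also had summer and autumn high. fst averaged 4.22 ± 0.355 FPKM in summer, 3.52 ± 0.686 in autumn, 1.53 ± 0.33 in spring and 1.63 ± 0.235 in winter. Autumn was 1.78-fold above spring (SE 0.06 on the log2 scale, adjusted p = 3.6e-13), and summer was 1.16-fold above autumn (adjusted p = 0.0033). foxl2, a transcription factor that in mice acts on fshb, averaged 2.76 ± 0.785 FPKM in autumn, 2.07 ± 0.823 in summer, 1.63 ± 0.523 in winter and 0.857 ± 0.249 in spring. Autumn was 2.00-fold above spring (adjusted p = 8.4e-10), and summer 1.61-fold above spring (adjusted p = 7.3e-07). Neither gene followed fshb through the year: fst was highest in summer, when fshb was also highest, and second in autumn, when fshb was lowest. Brain and pituitary share this tissue block, so where in it these genes changed cannot be told apart.

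Brain aromatase, the enzyme of radial glia that makes estrogen from androgen, had a summer maximum like all 3 subunits. cyp19b averaged 416 ± 72.3 FPKM in summer, 169 ± 26.7 in spring, 114 ± 14.1 in autumn and 83.3 ± 10.7 in winter. Like cga, it was above its winter level in spring, and unlike cga it was also above it in autumn (1.36-fold, adjusted p = 9.7e-07). It was 3.61-fold higher in summer than in autumn (SE 0.07 on the log2 scale, adjusted p = 7.2e-18).

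Transcription factors of pituitary development did not move together. gata2, which in mice acts in gonadotropes and thyrotropes, averaged 1.08 ± 0.223 FPKM in summer and 3.93 ± 0.831 in spring (2.34-fold lower in summer, adjusted p = 3.4e-13). A further GATA2 entry, LOC101161391, averaged 2.335 FPKM in summer and 2.065 in spring and was not called different (log2 0.12, limma adjusted p = 0.10). The pituitary homeobox 3 gene LOC101166980, of a family that includes early pituitary factors, averaged 3.20 ± 0.449 FPKM in summer and 7.33 ± 0.721 in spring (1.99-fold lower, adjusted p = 4.1e-15). nr5a1, the factor that in mice marks gonadotropes, averaged 1.38 ± 0.154 FPKM in summer against 0.997 ± 0.194 in winter (1.2-fold higher, adjusted p = 0.00017) and did not pass between summer and autumn (adjusted p = 0.31).

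Among the other pituitary hormones, no tested gene had the season order of lhb. Of 9 listed, 8 were tested, and 3 stood above and 3 below their winter level in summer, against 42% and 32.9% of all genes. Somatotropin (LOC101171460) was lowest in summer, at 1277 ± 254 FPKM against 3437 ± 936 in spring (2.62-fold lower, adjusted p = 1.9e-09). Somatolactin (LOC100049402), a hormone of the fish pituitary related to growth hormone, averaged 197 ± 56.5 FPKM in summer, 169 ± 61.0 in spring, 116 ± 37.1 in autumn and 72.8 ± 46.0 in winter. pomc, the precursor of corticotropin and melanotropins, was highest in autumn, at 581 ± 208 FPKM against 212 ± 48.5 in spring (2.69-fold, adjusted p = 4.8e-11). The POMC entries LOC101168338 and LOC101164777, at far lower levels, were instead highest in winter (2.84 and 2.33 FPKM). Prolactin (LOC101172582) was 2.06-fold higher in autumn than in winter (adjusted p = 3.1e-09).

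**Figure D5:**
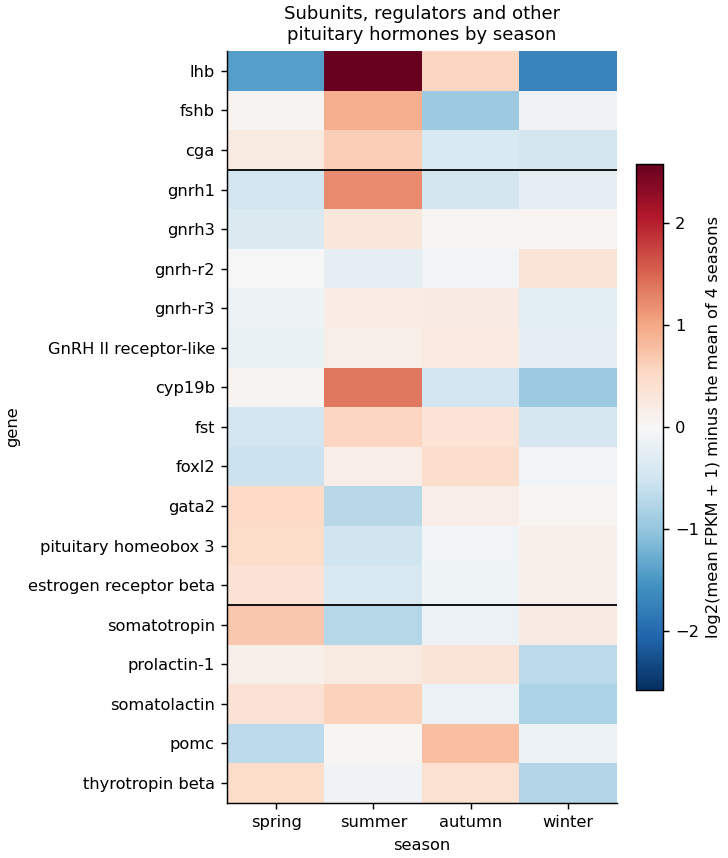
Season means of the subunits (top block), named regulators (middle) and other pituitary hormones (bottom) as log2(mean FPKM + 1) minus the mean over 4 seasons; red is higher and blue lower. lhb, fshb, cga, gnrh1 and cyp19b are all highest in summer, while growth hormone and gata2 are lowest in that season.

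The receptors for the gonadotropins, which act in the gonad, were close to the floor of the table. fshr averaged between 0.31 and 0.51 FPKM and lhcgr between 0.33 and 0.62 FPKM over the seasons, below the level tested. The other glycoprotein hormone genes, gpha2 and the gphb5 entries, also averaged below 1 FPKM in every season.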

How the data were processed

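The authors deposited FPKM values per gene for 48 libraries. The submitters' processing notes name Bowtie2 2.2.5 and RSEM 1.2.12. Genome build and annotation: not given in the sources used here. Depth is unknown, so no counting interval is given. Libraries were poly-A selected and strand-specific, per the labels' protocols. Gene names came from the table and from RefSeq (25080 of 26167 IDs matched). The row of lhb holds 6 transcripts, 5 of them marked as unannotated, and that of fshb 2, 1 of them so marked.

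Genes averaging at least 1 FPKM (16622) were tested on log2(FPKM + 1) with limma's moderated tests (limma 3.58.1, intensity trend, R 4.3.3), two-sided, with Benjamini-Hochberg adjustment over all genes. The model of 24 groups left 24 residual degrees of freedom, and the cosine model 36. Ratios and correlations were tested with 100000 permutations in Python 3.11.15. Scripts were tested on simulated data. Genes named are the members, members of the lists, and the 5 genes most like each member by each measure. Members and lists were chosen with earlier results of these data known.

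Alternatives were a pseudocount of 0.1, no filter, median-ratio and quantile scaling, no trend, array weights, other models, leaving out libraries, and a block for replicate numbers.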

Additional observations from a re-analysis of the deposited data

Results flagged for a closer look

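The daily curve of lhb differed between seasons in tests of the difference itself. The adjusted p was 0.00286 over the 4 seasons, 0.0025 for summer against spring and 0.0182 for autumn against spring (limma, over 16622 genes). The fitted peak was at 21.4 h in summer, 0.88 h in autumn and 8.82 h in spring, where the spring curve itself was not called (adjusted p = 0.20) and rests on levels of 4.58 to 14.3 FPKM. Without the 3 spring libraries that stand apart, the adjusted p was 0.015 over the seasons, 0.033 for summer against spring and 0.12 for autumn against spring, and the spring amplitude was 0.18 in place of 0.34.

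The daily curve of cga differed likewise, with an adjusted p of 0.00939 over the 4 seasons, 0.00393 for autumn against winter and 0.022 for autumn against spring. With those spring libraries left out, these were 0.015, 0.0051 and 0.060. The fitted peak was at 4.47 h in autumn and 13.3 h in winter, and the winter curve itself was not called (adjusted p = 0.29). Each season was sampled over 1 cycle with 2 libraries an hour.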

How the results depend on the processing

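Of 858 recomputed values, 821 kept their direction and side of the threshold, or for counts stayed within 1.5 times. Amplitudes, clock hour ranges and curve differences are sizes without a sign, so for them only the side of the threshold could change. Shifts of the peak hour were not scored. Dropping the filter leaves the estimates as they were and can move only the p-values. The count therefore overstates how many values could have changed direction. The alternatives for clock hour tests, curve differences and listed genes were chosen after seeing the data. A replicate block (title number within clock hour) changed no call of a season level (lhb summer against winter log2 4.22, adjusted p = 7.7e-18); it was not run for daily curves. Deviations of same-numbered libraries had 36 correlations from -0.163 to 0.293 (median -0.0055), with those at clock hour 18 all positive (0.045 to 0.197). Whether the number stands for a shared batch cannot be told. cga autumn against winter, not called in any setting, was -0.016 after median-ratio scaling, -0.033 without replicate 2 of each group and 0.14 without replicate 1, and -0.0043 to 0.11 with single libraries left out. Without replicate 1 and without replicate 2 in turn, fshb spring against winter was -0.20 and 0.47, lhb spring against winter 0.46 and 0.020, cga summer against spring 0.56 and 0.23 (adjusted p = 0.41 for the latter) and fshb summer against spring 1.195 and 0.58. Without the 3 spring libraries that stand apart, lhb spring against winter was 0.37 (adjusted p = 0.021; 0.17 to 0.32 with single libraries left out), the lhb to cga ratio for that pair -0.32 (adjusted p = 0.13) and the autumn clock hour range of lhb 1.03 (adjusted p = 0.044; 0.90 to 1.16 with single libraries left out). In that setting the daily curves of autumn and spring differed by 0.53 for lhb (adjusted p = 0.12) and 0.63 for cga (adjusted p = 0.060; 0.56 to 0.68 with single libraries left out) on the log2 scale. The summer range of lhb was 1.02 with a pseudocount of 0.1 (adjusted p = 0.056), 1.01 with no filter (adjusted p = 0.056) and 0.94 to 1.40 with single libraries left out. With clock hours in place of the curve, autumn lhb had a range of 1.03 (adjusted p = 0.073; curve amplitude 0.39 to 0.51 with single libraries left out) and winter cga 1.04 (adjusted p = 0.026; 0.80 to 1.29 with single libraries left out). Winter r of fshb with cga was 0.74 after median-ratio scaling, 0.72 after quantile normalization and 0.64 without the 2 farthest libraries, and that of lhb with cga -0.10. Summer against winter, gnrh3 was 0.20 after median-ratio scaling (adjusted p = 0.11), and pomc was called after quantile normalization alone (0.35). Causes were not tested. No scaling moved the median of all genes by 0.1 or more on the log2 scale (largest shift -0.0738). Depth is unknown, so what it limits cannot be stated.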
